A study of Homo sapiens with 12 samples.

Results

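The enzymes that build phosphatidylcholine and phosphatidylethanolamine from choline, ethanolamine and diacylglycerol were followed through 10 genes: the choline kinases CHKA and CHKB, the ethanolamine kinase ETNK1, the cytidylyl transferases PCYT1A and PCYT2, the phosphotransferases CHPT1 and CEPT1, and the lipins LPIN1, LPIN2 and LPIN3. They were taken by gene symbol from a table of 57152 symbols with values in 12 RNA sequencing libraries, and all 10 were among the 13968 genes tested. The libraries form 4 groups of 3: LB cells given amiodarone and HPbCD, LB cells given amiodarone, LB cells given DMSO, and A549 cells given DMSO. A549 is a human lung adenocarcinoma line. The labels name A549 as the source of the LB cells too, with their derivation not given in the sources used here. Amiodarone, a cationic amphiphilic drug that gathers in lysosomes and causes phospholipid storage, was given at 10 µM for 24 h. HPbCD is hydroxypropyl-beta-cyclodextrin, a sugar ring that binds cholesterol, and was added when cells were seeded, at 10 mg/ml and 24 h ahead of amiodarone. Vehicle cells had 0.1% DMSO. HPbCD without amiodarone and amiodarone in A549 cells were not analysed here.

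Phosphatidylcholine and phosphatidylethanolamine are the main membrane phospholipids of human cells, and phosphatidylcholine is also the main lipid of lung surfactant. In the Kennedy pathway a kinase phosphorylates choline or ethanolamine, a cytidylyl transferase turns the product into its CDP form, and a phosphotransferase joins it to diacylglycerol. The cytidylyl transferase step usually limits the rate. Lipins remove the phosphate of phosphatidic acid to give diacylglycerol, which feeds both arms and triglyceride synthesis.

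PCYT2 and LPIN1 moved furthest among these genes and LPIN2 also changed, so DNA from the 250 bases before their start sites is shown, from RefSeq on GRCh38.p14. Of the 10 genes, 8 have an entry in the RefSeq table of promoters, with 13 start sites, and CHKA and LPIN3 do not. The 250 bases before each start were searched on both strands. TCACNCCAC was taken as the core of a sterol regulatory element. The letters CACGTG stood for an E-box. The CCAAT box was searched by the letters of its name, and GGGCGG stood for a GC box. Capitals mark matches, and each printed run is 5′ to 3′ on the gene's strand and ends before the nearest exon in GENCODE 29. The runs are the PCYT2 sequence at chr17:81911465-81911649 (minus strand), the LPIN1 sequence at chr2:11746382-11746587 (plus strand, before the start with the most matches) and the LPIN2 sequence at chr18:3013316-3013394 (minus strand).
PCYT2: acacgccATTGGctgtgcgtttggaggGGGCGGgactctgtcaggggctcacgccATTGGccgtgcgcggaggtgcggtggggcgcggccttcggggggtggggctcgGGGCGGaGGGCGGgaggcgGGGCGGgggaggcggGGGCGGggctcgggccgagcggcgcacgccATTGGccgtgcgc
LPIN1: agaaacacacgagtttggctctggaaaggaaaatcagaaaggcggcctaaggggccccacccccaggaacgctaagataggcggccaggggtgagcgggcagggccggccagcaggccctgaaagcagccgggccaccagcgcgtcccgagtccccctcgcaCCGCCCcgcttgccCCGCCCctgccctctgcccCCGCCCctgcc
LPIN2: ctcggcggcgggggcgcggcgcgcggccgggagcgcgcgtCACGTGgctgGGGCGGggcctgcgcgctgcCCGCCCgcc
The PCYT2 run holds 3 CCAAT boxes, all on the opposite strand as ATTGG, and 5 GC boxes, where the full 250 bases hold 7 GC boxes, of which the last pair overlap. The LPIN1 run holds 3 GC boxes on the opposite strand and no CCAAT box, and the LPIN2 run holds 1 E-box and 2 GC boxes. In each of these LPIN1 and LPIN2 windows the full 250 bases hold 4 GC boxes. For PCYT2 and LPIN2 too, the start with the most matches is shown. The other PCYT2 window (chr17:81911176-81911425) holds 0 CCAAT boxes and 3 GC boxes. The other LPIN2 window (chr18:3011948-3012197) holds 0 matches, and the other LPIN1 windows hold 0 and 1 GC boxes. Among the windows of all 35116 RefSeq starts, 32.0% hold a CCAAT box, 42.6% a GC box, 6.34% an E-box and 0.883% the sterol element core. The core was in 0 of the 13 windows searched here. A CCAAT box was in 2 of them (the PCYT2 window shown and CHKB), and the LPIN2 window shown was the only 1 with an E-box. A GC box was in 9 of the 13.

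Expression was deposited as TPM, a measure of transcript abundance that is corrected for length and scaled to the same total in every library, so read depth and counting error are unknown. Differences below are log2 differences of TPM + 1, with their standard error (SE), and are too small for genes with low values. Adjusted p are from limma with Benjamini-Hochberg adjustment over all tested genes, two-sided, with 0.05 as threshold, and means are given ± SD with n = 3 libraries per group. Counts of genes with an unadjusted p under 0.05 have no share over all tested genes beside them, since that share was not computed. The labels do not say whether replicates are separate cultures, so the spread between libraries of a group may be technical. The limma p-values rest on that spread pooled over all 4 groups, not only on the 2 groups compared. In such bulk samples, fewer cells that express a gene and less RNA per cell cannot be told apart. Replicates correlated at 0.9846 to 0.9886 across the tested genes, and libraries of different groups at 0.9427 to 0.9858, so the 2 ranges overlapped. Of 5 epithelial markers KRT8 and KRT18 were high in all libraries (KRT8 at 1461 to 4221 TPM), KRT19 lay at 45.1 to 287 TPM, CDH1 at 7.29 to 33.2 TPM and EPCAM at 1.13 to 12.1 TPM, and the 5 summed to 2561 to 3223 TPM in LB cells, against 7254 to 7791 TPM in A549 cells. Summed markers of other cell types reached 15.6 TPM for fibroblasts (COL1A1 up to 9.25 and LUM up to 6.21), 6.41 TPM for leukocytes (CD14 up to 5.71 and CD79A up to 1.01, with PTPRC at most 0.01 and CD3E at 0) and 0.85 TPM for endothelium. Of 7 alveolar type II markers SFTPB, SFTPC, SFTPD and ABCA3 were high in LB cells, and SFTPC averaged 597, 509 and 590 TPM in LB amiodarone plus HPbCD, LB amiodarone and LB DMSO, against 0.46 TPM in A549 DMSO, whereas NAPSA, LAMP3 and SFTPA1 did not exceed 3.88, 0.57 and 0.03 TPM in any library. Their part in the results below was not tested.

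Because TPM is per length, the 10 genes can be ordered by level. In LB DMSO cells CHPT1, the choline-specific phosphotransferase, stood first at 71.1 ± 6.01 TPM. PCYT1A at 30.3 ± 2.99 and PCYT2 at 28.6 ± 0.18 TPM came next and did not differ beyond their spread. CHKB at 23.3 ± 2.97, ETNK1 at 22.3 ± 2 and CHKA at 21.5 ± 0.512 TPM overlapped one another, as did LPIN1 at 16.3 ± 2.38 and LPIN3 at 12.8 ± 2.36 TPM. CEPT1, which takes both CDP-choline and CDP-ethanolamine, lay beside LPIN3 at 12.7 ± 0.917 TPM, and LPIN2 was lowest at 6.4 ± 0.144 TPM. In LB amiodarone cells PCYT2 (71.3 ± 6.4 TPM) stood level with CHPT1 (71.3 ± 5.38 TPM), and LPIN1 came next at 45 ± 7.13 TPM. The summed TPM of the 10 genes was 323.2 to 340 in LB amiodarone plus HPbCD, 322.4 to 349.2 in LB amiodarone, 242.6 to 247.3 in LB DMSO and 221.1 to 236.7 in A549 DMSO.

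**Figure D1:**
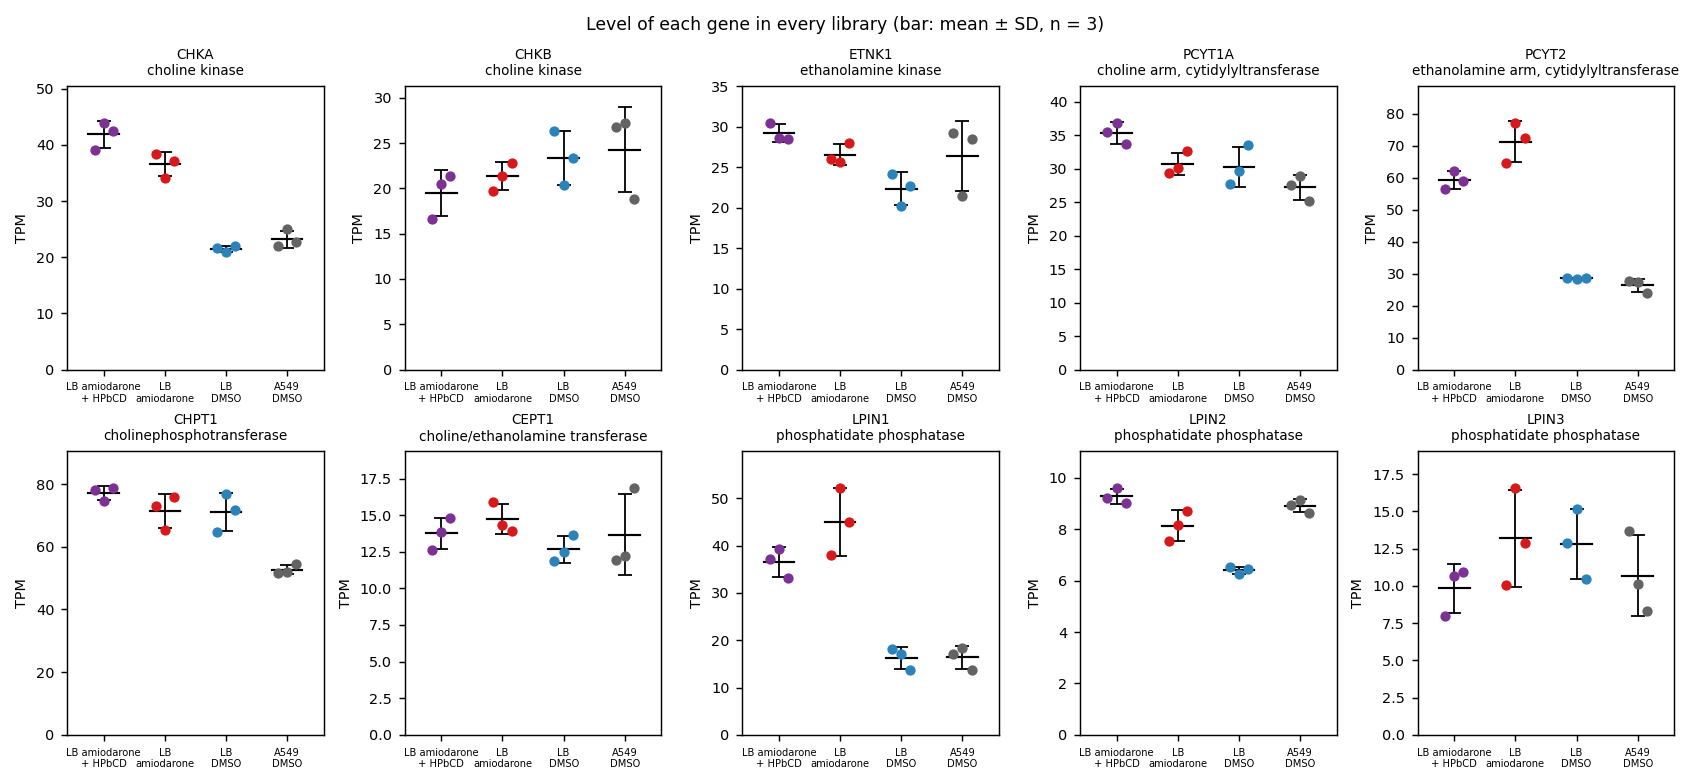
Level of each of the 10 genes in TPM (y axis, from 0) in every library, by group (x axis); each point is 1 library and the bars are the mean ± SD of 3 libraries. CHKA, PCYT2 and LPIN1 lie higher in both amiodarone groups than in both DMSO groups, with PCYT2 at 64.5 to 77.2 TPM in LB amiodarone against 28.4 to 28.8 TPM in LB DMSO.

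Amiodarone was compared with DMSO in LB cells to find how the drug alters these genes. The choline kinase CHKA, the cytidylyl transferase of the ethanolamine arm and 2 of the 3 lipins rose, and no gene of the 10 fell. LPIN1 rose by 1.41 on the log2 scale, PCYT2 by 1.29, CHKA by 0.74 and LPIN2 by 0.3. These are 4 of 10 genes higher, where 4.9% of all tested genes were called higher and 3.72% lower, and 8.62% in either direction. The groups did not overlap in 6 of the 10, where they did not overlap in 30% of all tested genes. The median difference of the 10 was 0.22, against 0 over all tested genes.

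At the kinase step the 2 choline kinases parted. CHKA, which makes phosphocholine, had 38.4, 34.1 and 37.2 TPM in LB amiodarone, against 21.6, 20.9 and 21.95 TPM in LB DMSO. All 3 drug libraries lay above all 3 DMSO libraries, and the means were 36.6 ± 2.19 and 21.5 ± 0.512 TPM (log2 difference 0.74 ± 0.069 SE, adjusted p = 3.07e-05). CHKB, the other choline kinase, had 19.7, 21.4 and 22.8 TPM with the drug, against 26.3, 20.3 and 23.3 TPM with DMSO, and the groups overlapped (log2 difference -0.12 ± 0.14 SE, adjusted p = 0.684). ETNK1, which makes phosphoethanolamine, had 26.0, 25.6 and 27.99 TPM against 24.2, 20.2 and 22.6 TPM. Its groups did not overlap but it did not pass (log2 difference 0.24 ± 0.11 SE, adjusted p = 0.194). CHKA thus made up 63.2 ± 2.49% of the summed choline kinase TPM with amiodarone, against 48.1 ± 2.83% with DMSO.

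At the cytidylyl transferase step the difference lay in the ethanolamine arm. PCYT2, which makes CDP-ethanolamine, had 64.5, 77.2 and 72.3 TPM in LB amiodarone, against 28.6, 28.4 and 28.8 TPM in LB DMSO. The drug libraries were all at more than 2-fold the highest DMSO library, and the ratio of means was 2.5 (log2 difference 1.29 ± 0.074 SE, adjusted p = 3.33e-07). PCYT1A, which makes CDP-choline, had 29.4, 30.1 and 32.6 TPM with the drug, against 27.7, 29.6 and 33.5 TPM with DMSO. Its groups overlapped, with a log2 difference of 0.02 and a 95% interval from -0.15 to 0.2 (adjusted p = 0.904). PCYT2 was 69.9 ± 1.81% of the TPM of both genes together with amiodarone, against 48.6 ± 2.34% with DMSO. PCYT1B, the second gene for the choline enzyme, stayed under 0.2 TPM in all 12 libraries (highest 0.18) and was not tested.

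The final transferases did not pass. CHPT1 averaged 71.3 ± 5.38 TPM with amiodarone and 71.1 ± 6.01 TPM with DMSO (log2 difference 0.01, 95% interval -0.14 to 0.16, adjusted p = 0.976). CEPT1 averaged 14.7 ± 1.04 and 12.7 ± 0.917 TPM, with all drug libraries above the DMSO ones (log2 difference 0.2 ± 0.12 SE, adjusted p = 0.342). The share of CEPT1 in the summed TPM of both was 17.1 ± 1.39% with amiodarone and 15.2 ± 1.05% with DMSO.

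Among the lipins the largest change was in LPIN1, which in mouse is known for its part in fat cell formation and liver fat metabolism. It had 37.9, 52.2 and 45.0 TPM in LB amiodarone, against 18.2, 17.0 and 13.6 TPM in LB DMSO. The lowest drug library was at about 2-fold the highest DMSO library, and the ratio of means was 2.76 (log2 difference 1.41 ± 0.14 SE, adjusted p = 4.88e-05). LPIN2, whose loss causes Majeed syndrome in people, had 7.53, 8.17 and 8.72 TPM with the drug, against 6.51, 6.24 and 6.46 TPM with DMSO (log2 difference 0.3 ± 0.078 SE, adjusted p = 0.0333). The groups of LPIN2 did not overlap, but its call ended without LB DMSO replicate 1 (0.0771), replicate 2 (0.0929) or replicate 3 (0.0848), and without LB amiodarone replicate 2 (0.0881) or replicate 3 (0.109). It also ended when only the 2 groups compared were fitted (adjusted p = 0.0949). LPIN3 had 10.1, 16.6 and 12.9 TPM against 12.9, 15.2 and 10.5 TPM, with overlapping groups (adjusted p = 0.963). LPIN1 made up 67.9 ± 0.382% of the summed lipin TPM with amiodarone, against 45.8 ± 2.36% with DMSO, LPIN2 12.4 ± 1.58% against 18.2 ± 2.57%, and LPIN3 19.7 ± 1.72% against 36 ± 3.05%.

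**Figure D2:**
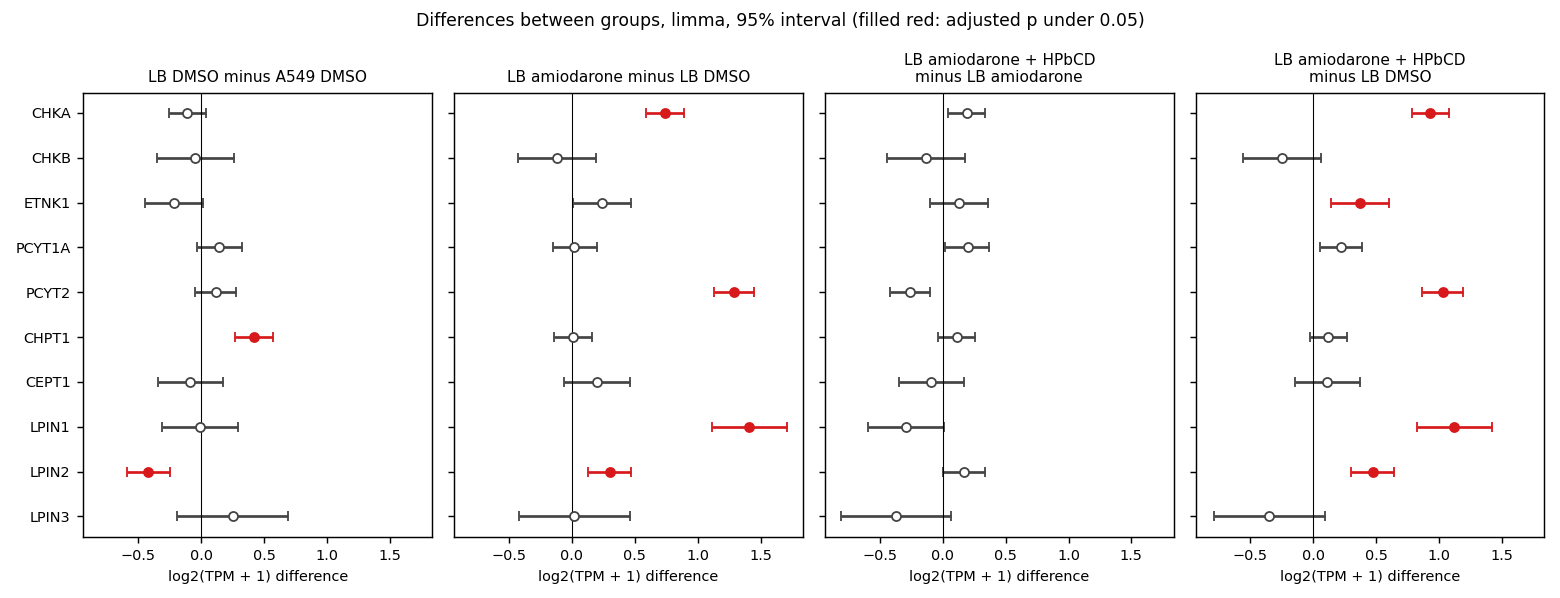
Difference of each of the 10 genes (rows) on the log2(TPM + 1) scale (x axis) in the 4 comparisons (panels), with the 95% interval from limma; filled red points have an adjusted p under 0.05. CHKA, PCYT2 and LPIN1 are red in both comparisons of drug-treated with DMSO-treated LB cells, and no gene is red where HPbCD was added to amiodarone.

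The shares were compared by an exact two-sided permutation test over libraries, which with 3 against 3 cannot go below p = 0.1. In LB amiodarone against LB DMSO the groups did not overlap for CHKA, PCYT2, LPIN1, LPIN2 and LPIN3 (exact permutation p = 0.1 each, the smallest the design allows). For CEPT1 the exact permutation p was 0.2. Adjusted by Benjamini-Hochberg over the 24 share comparisons, the smallest value was 0.171, so no share passed at 0.05.

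**Figure D3:**
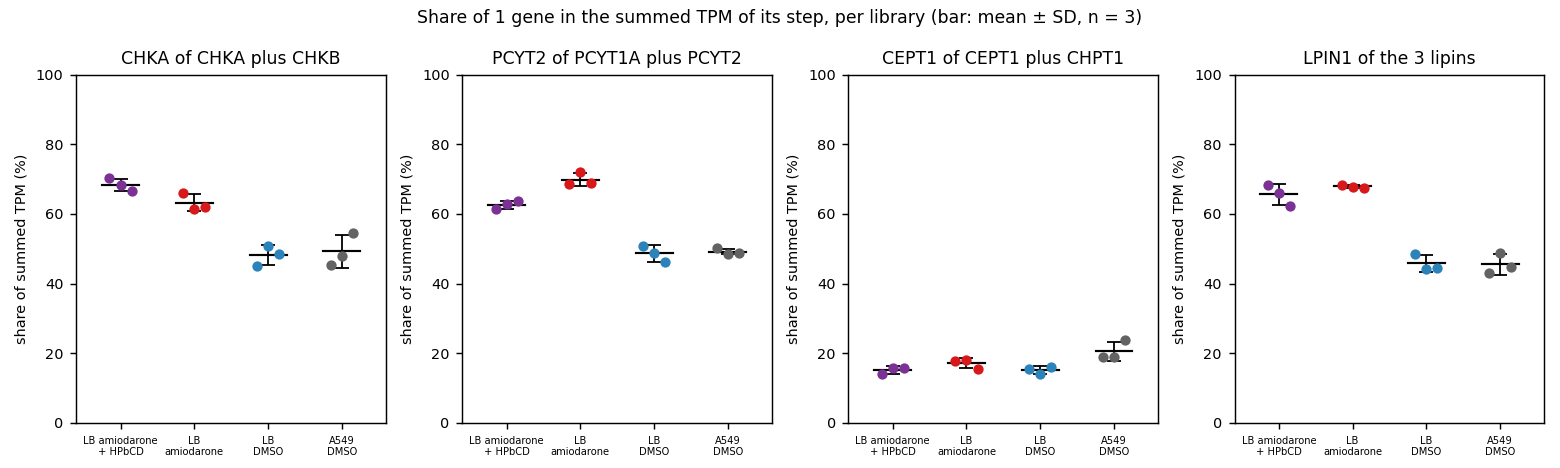
Share of 1 gene in the summed TPM of its enzyme step (y axis, percent) in every library, by group (x axis); points are libraries and bars the mean ± SD of 3. The LPIN1 share is 62.4 to 68.4% in the 6 amiodarone-treated libraries and 43.1 to 48.9% in the 6 DMSO libraries.

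In 5 lists of other phospholipid genes, 2 genes rose and 1 fell with amiodarone. Of all tested genes 4.9% were called higher and 3.72% lower. Of 7 tested genes of the ethanolamine and serine branches 0 passed in limma, 2 having an unadjusted p under 0.05. SELENOI, the ethanolamine-specific phosphotransferase, averaged 16.4 ± 2.11 TPM with the drug and 13.6 ± 0.335 TPM with DMSO (adjusted p = 0.135). Of 11 choline transport and recycling genes 1 rose and 0 fell: FLVCR1, which carries choline and was first known as a heme exporter, averaged 22.2 ± 3.42 and 14.5 ± 1.93 TPM (log2 difference 0.58 ± 0.12 SE, adjusted p = 0.0121). The FLVCR1 call ended when replicate 2 of LB DMSO (0.0534) or replicate 2 (0.0554) or 3 (0.0542) of LB amiodarone was left out. Of 15 genes that supply phosphatidic acid and diacylglycerol 0 rose and 1 fell, the phosphatase PLPP2 (86.8 ± 5.81 and 101 ± 3.74 TPM, log2 difference -0.22, adjusted p = 0.037), whose call ended without any 1 of 6 libraries: LB DMSO replicates 1, 2 and 3, LB amiodarone replicates 2 and 3, and LB amiodarone plus HPbCD replicate 1 (adjusted p up to 0.128), and under 5 other settings such as median-of-ratios scaling (0.0569).

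Of 6 genes of the CDP-diacylglycerol branch, which leads to inositol lipids and cardiolipin, 0 passed in limma and 0 had an unadjusted p under 0.05. Among 7 lipin regulators and partners 1 rose, SREBF2, the gene for the sterol-sensing transcription factor SREBP2. It had 56.8, 63.0 and 62.8 TPM with amiodarone, against 40.8, 43.7 and 40.5 TPM with DMSO, without overlap (log2 difference 0.53 ± 0.076 SE, adjusted p = 0.00103). SREBF1, which encodes SREBP1, averaged 207 ± 12.1 and 202 ± 7.37 TPM (adjusted p = 0.862). The median differences of these 5 lists lay between 0 and 0.15, beside 0 for all tested genes.

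HPbCD added to amiodarone was compared with amiodarone alone to find how these genes differ when the cyclodextrin is present. Without a group given HPbCD only, an altered drug response and an effect of HPbCD itself cannot be told apart. None of the 10 genes passed in limma, and 4 of them (CHKA, PCYT1A, PCYT2 and LPIN2) had an unadjusted p under 0.05. Among all tested genes 4.07% were called at the adjusted threshold, 2.71% higher and 1.36% lower. The share of all tested genes with an unadjusted p under 0.05 was not computed, so the count of 4 cannot be set against these shares. The 3 genes with the largest drug response stood on different sides of zero. PCYT2 had 56.4, 62.1 and 59.1 TPM with HPbCD, all under the 64.5 to 77.2 TPM of amiodarone alone (log2 difference -0.26 ± 0.074 SE, 95% interval -0.42 to -0.1, adjusted p = 0.0742).

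That value of PCYT2 was close to the threshold and passed it without LB amiodarone replicate 1 (adjusted p = 0.0423) and without A549 DMSO replicate 3 (0.049). LPIN1 had 37.1, 39.3 and 33.1 TPM with HPbCD, which overlapped the 37.9 to 52.2 TPM of amiodarone alone (log2 difference -0.29 ± 0.14 SE, adjusted p = 0.302). CHKA had 39.2, 44.0 and 42.5 TPM, all above the 34.1 to 38.4 TPM of amiodarone alone (log2 difference 0.19 ± 0.069 SE, adjusted p = 0.163). PCYT1A averaged 35.3 ± 1.6 TPM with HPbCD and 30.7 ± 1.67 TPM without it, and LPIN2 9.28 ± 0.291 and 8.14 ± 0.596 TPM, both with groups that did not overlap (adjusted p = 0.212 and 0.272). ETNK1 was the fifth gene without overlap, at 29.2 ± 1.13 and 26.5 ± 1.27 TPM (adjusted p = 0.572), and groups did not overlap in 25.1% of all tested genes.

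The 4 genes left were CHKB (19.5 ± 2.56 and 21.3 ± 1.55 TPM), CHPT1 (77.2 ± 2.25 and 71.3 ± 5.38 TPM), CEPT1 (13.8 ± 1.07 and 14.7 ± 1.04 TPM) and LPIN3 (9.84 ± 1.64 and 13.2 ± 3.25 TPM), with adjusted p between 0.364 and 0.751. In shares, PCYT2 was 62.6 ± 1.16% of the cytidylyl transferase TPM with HPbCD and 69.9 ± 1.81% with amiodarone alone, and CHKA 68.3 ± 1.87% of the choline kinase TPM and 63.2 ± 2.49% (exact permutation p = 0.1 for both, the smallest possible). LPIN1 was 65.6 ± 3.01% of the lipin TPM with HPbCD and 67.9 ± 0.382% without (exact permutation p = 0.4). In each of the 5 lists of other pathway genes 0 passed in limma, with 1, 1, 3, 0 and 1 genes at an unadjusted p under 0.05 in the ethanolamine and serine, choline, phosphatidic acid, CDP-diacylglycerol and lipin partner lists.

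Amiodarone plus HPbCD was compared with DMSO in LB cells to give the distance from the vehicle under both agents. CHKA, PCYT2, LPIN1, LPIN2 and ETNK1 rose and no gene of the 10 fell, so that 5 of 10 were higher where 10.1% of all tested genes were called higher and 7.81% lower, 17.9% in all. The groups did not overlap in 6 of the 10, against 39.1% of all tested genes. This comparison shares its DMSO libraries with that of amiodarone alone. The median difference of the 10 genes was 0.3, against -0.02 over all tested genes.

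CHKA was at 41.9 ± 2.46 TPM under both agents and 21.5 ± 0.512 TPM with DMSO (log2 difference 0.93 ± 0.069 SE, adjusted p = 2.06e-06). PCYT2 was at 59.2 ± 2.84 TPM under both agents and 28.6 ± 0.18 TPM with DMSO (log2 difference 1.03 ± 0.074 SE, adjusted p = 1.67e-06). LPIN1 averaged 36.5 ± 3.14 and 16.3 ± 2.38 TPM (log2 difference 1.12 ± 0.14 SE, adjusted p = 0.000157). In these 3 genes every library with both agents exceeded every DMSO library by more than 1.5-fold.

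LPIN2 had 9.21, 9.6 and 9.03 TPM under both agents, against 6.51, 6.24 and 6.46 TPM with DMSO (log2 difference 0.47 ± 0.078 SE, adjusted p = 0.00126). ETNK1 had 30.5, 28.6 and 28.5 TPM against 24.2, 20.2 and 22.6 TPM (log2 difference 0.37 ± 0.11 SE, adjusted p = 0.0291). The groups did not overlap, but the ETNK1 call ended when replicate 2 (0.109) or 3 (0.0665) of LB DMSO was left out, likewise LB amiodarone plus HPbCD replicate 1 (0.0977), 2 (0.0619) or 3 (0.0625), and with no filter on low values (0.0712). PCYT1A had 35.5, 36.9 and 33.7 TPM against 27.7, 29.6 and 33.5 TPM (log2 difference 0.22 ± 0.079 SE, adjusted p = 0.0763). It passed after median-of-ratios scaling (0.0475) and without LB DMSO replicate 3 (0.0313). CHKB, CHPT1, CEPT1 and LPIN3 had log2 differences of -0.25, 0.12, 0.11 and -0.35 (adjusted p 0.26 to 0.573).

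Of all tested genes 10.1% were called higher under both agents and 7.81% lower. Of the other pathway genes, 2 of 7 in the ethanolamine and serine branches rose. SELENOI had 20.3, 17.8 and 17.9 TPM under both agents, against 13.2, 13.8 and 13.7 TPM with DMSO (log2 difference 0.43 ± 0.095 SE, adjusted p = 0.00819). PTDSS2, a phosphatidylserine synthase that exchanges the head group of phosphatidylethanolamine, averaged 52.3 ± 1.54 and 42.9 ± 2.97 TPM (log2 difference 0.28 ± 0.07 SE, adjusted p = 0.0153), and its call ended if replicate 2 of LB DMSO (0.0639) or of LB amiodarone plus HPbCD (0.0555) was left out. In the choline list 1 of 11 rose and 2 fell. FLVCR1 was at 20.6 ± 0.565 and 14.5 ± 1.93 TPM (adjusted p = 0.0151, 0.0648 when replicate 2 of LB DMSO was left out and 0.0512 when that of LB amiodarone plus HPbCD was). SLC44A2, a choline transporter-like protein, was at 7.48 ± 0.826 and 11.9 ± 0.307 TPM (log2 difference -0.61 ± 0.15 SE, adjusted p = 0.013, 0.0556 without LB amiodarone plus HPbCD replicate 1). The phospholipase PLD2, which frees choline from phosphatidylcholine, was at 14.6 ± 0.792 and 18.8 ± 0.983 TPM (adjusted p = 0.0324). The PLD2 call ended when replicate 1 (0.107) or 2 (0.0856) of LB DMSO was left out, likewise LB amiodarone plus HPbCD replicate 1 (0.115), 2 (0.0653) or 3 (0.0584), and with no filter on low values (0.0707).

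In the phosphatidic acid list 1 of 15 rose and 1 fell, where 17.9% of all tested genes were called in either direction. DGKD, a kinase that turns diacylglycerol back into phosphatidic acid, had 18.4, 24.7 and 23.1 TPM under both agents, against 15.4, 15.7 and 12.6 TPM with DMSO (log2 difference 0.56 ± 0.11 SE, adjusted p = 0.00457). PLPP2 fell by 0.2 on the log2 scale (adjusted p = 0.031), a call that ended without any 1 of 5 libraries, namely LB DMSO replicates 2 and 3 and the 3 LB amiodarone plus HPbCD replicates (adjusted p up to 0.113), and under 3 other settings such as median-of-ratios scaling (0.0718). SREBF2 was at 52.8 ± 0.985 and 41.7 ± 1.75 TPM (log2 difference 0.34 ± 0.076 SE, adjusted p = 0.00931), the 1 of 7 lipin regulators and partners to pass. Of the 6 CDP-diacylglycerol genes 0 passed in limma, with 0 at an unadjusted p under 0.05.

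**Figure D4:**
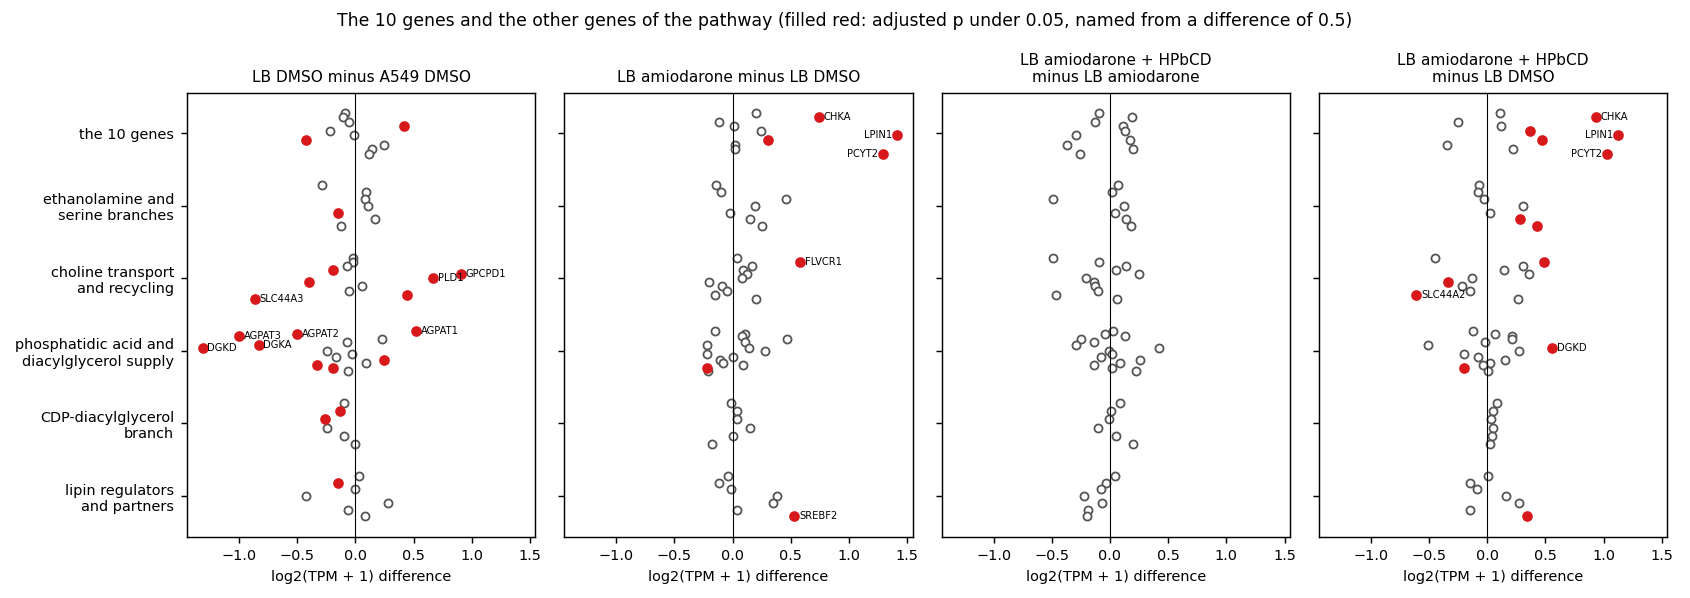
Difference on the log2(TPM + 1) scale (x axis) of every tested gene in the set of 10 and in the 5 lists of other pathway genes (rows), in the 4 comparisons (panels); filled red points have an adjusted p under 0.05, and those with a difference of at least 0.5 are named. In LB amiodarone against LB DMSO, LPIN1 (1.41) and PCYT2 (1.29) lie to the right of all points of the other lists.

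LB cells were compared with A549 cells, both with DMSO, to find how the lines differ without drug. The choline phosphotransferase CHPT1 was higher in LB cells and LPIN2 was lower, and the other 8 genes did not pass. CHPT1 had 64.9, 76.8 and 71.6 TPM in LB DMSO, against 51.6, 52.0 and 54.4 TPM in A549 DMSO, without overlap (log2 difference 0.42 ± 0.069 SE, adjusted p = 0.000504). LPIN2 had 6.51, 6.24 and 6.46 TPM in LB DMSO, against 8.94, 9.14 and 8.64 TPM in A549 DMSO, also without overlap (log2 difference -0.42 ± 0.078 SE, adjusted p = 0.00125). These are 2 of 10 genes, where 32.4% of all tested genes were called, 14.2% higher and 18.2% lower.

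The 3 genes with the largest drug response were close in level in the 2 lines. LPIN1 averaged 16.3 ± 2.38 TPM in LB DMSO and 16.4 ± 2.43 TPM in A549 DMSO (95% interval of the log2 difference -0.31 to 0.29). PCYT2 averaged 28.6 ± 0.18 and 26.3 ± 2.03 TPM (interval -0.05 to 0.28) and CHKA 21.5 ± 0.512 and 23.2 ± 1.53 TPM (interval -0.26 to 0.04), both with groups that did not overlap, where 43.7% of all tested genes did not overlap. ETNK1 was at 22.3 ± 2 and 26.4 ± 4.33 TPM (log2 difference -0.22, adjusted p = 0.133), and passed without A549 DMSO replicate 2 (log2 difference -0.36, adjusted p = 0.00542). The median over the 10 genes was -0.03, beside -0.04 for all tested genes.

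CEPT1 was 15.2 ± 1.05% of the summed TPM of CEPT1 and CHPT1 in LB DMSO and 20.5 ± 2.74% in A549 DMSO, and LPIN2 was 18.2 ± 2.57% and 25 ± 2.91% of the lipin TPM (exact permutation p = 0.1 for both, the smallest possible). Of all tested genes 14.2% were called higher in LB DMSO than in A549 DMSO and 18.2% lower. In the phosphatidic acid list 2 of 15 were higher in LB DMSO and 6 lower. Of these 8 calls 3 ended at once, leaving 5, without A549 DMSO replicate 1 (GPAT3, DGKA and PLPP1), LB DMSO replicate 1 (PLPP1, PLPP2 and DGKA) or LB DMSO replicate 3 (GPAT3, PLPP2 and DGKA), and those of PLPP1 and PLPP2 ended without A549 DMSO replicate 3 (adjusted p up to 0.102). Other settings also ended the calls of PLPP1 and GPAT3 (2-group fit, 0.0603 and 0.0664), PLPP1 (no filter, 0.0535) and PLPP2 (median-of-ratios scaling, 0.0932, and no trend, 0.0528). AGPAT3, an acyltransferase that makes phosphatidic acid, averaged 13.5 ± 0.837 TPM in LB DMSO and 28.1 ± 0.915 TPM in A549 DMSO (log2 difference -1 ± 0.08 SE, adjusted p = 1.47e-06). DGKD averaged 14.6 ± 1.71 and 37.5 ± 2.2 TPM (log2 difference -1.31 ± 0.11 SE, adjusted p = 2.72e-06), and the related enzyme AGPAT1 53.8 ± 1.67 and 37.4 ± 3.28 TPM (log2 difference 0.52 ± 0.076 SE, adjusted p = 0.000219). In the choline list 3 of 11 were higher and 3 lower, among them GPCPD1, which releases choline from glycerophosphocholine, at 33.4 ± 3.21 and 17.4 ± 2.72 TPM (log2 difference 0.91 ± 0.13 SE, adjusted p = 0.000192). The phospholipase PLD1 was at 13.7 ± 0.832 and 8.33 ± 1.62 TPM (adjusted p = 0.00128), and the choline transporter-like gene SLC44A3 at 1.13 and 2.86 TPM (log2 difference -0.86, adjusted p = 0.00188). The calls of SLC44A2 (higher) and GDE1 (lower), also in that count, ended without A549 DMSO replicate 2 or LB DMSO replicate 2 or 3 (0.0707 to 0.138), SLC44A2 also without LB DMSO replicate 1 (0.0931) and GDE1 without A549 DMSO replicate 1 (0.0623) or 3 (0.0526) or LB amiodarone plus HPbCD replicate 3 (0.0529). Both ended in the 2-group fit (0.104 and 0.0594) and with no filter (0.085 and 0.0685), SLC44A2 with the replicate block (0.0574), and GDE1 with median-of-ratios scaling (0.118) and no trend (0.0667). The ethanolamine and serine, CDP-diacylglycerol and lipin partner lists had 0 higher and 1, 2 and 1 lower (PTDSS1, then CDS2 with CRLS1, then CTDNEP1), with log2 differences between -0.26 and -0.13. These calls ended without A549 DMSO replicate 2 for PTDSS1 (0.116) and CTDNEP1 (0.1), replicate 3 for CRLS1 (0.0875) and CDS2 (0.0685), replicate 1 for CDS2 (0.106), and without LB DMSO replicate 3 for all 4 (0.0589 to 0.109). Calls of the 4 genes also ended without LB DMSO replicate 1 (PTDSS1, CTDNEP1 and CDS2, up to 0.129) or 2 (PTDSS1, CRLS1 and CDS2, up to 0.125), and for CDS2 without LB amiodarone replicate 1 (0.0514) or LB amiodarone plus HPbCD replicate 1 (0.052) or 3 (0.0508). PTDSS1, CDS2 and CTDNEP1 also ended under median-of-ratios scaling (0.143, 0.136 and 0.121), without the limma trend (0.0723, 0.0651 and 0.0713) and in the 2-group fit (0.0815, 0.0897 and 0.0659), and CDS2 with the replicate block (0.0509). SLC5A7, a neuronal choline transporter, was listed at 0 in all 12 libraries, and PPARGC1A, a lipin partner in mouse liver, lay under 1 TPM in all (highest 0.88). PPARGC1A had 0.54, 0.67 and 0.88 TPM in A549 DMSO, against 0.01, 0 and 0 TPM in LB DMSO, and was too low to be tested.

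The tested genes whose pattern over the 12 libraries was most like that of LPIN1, PCYT2 and CHKA were found by Pearson correlation of log2(TPM + 1), given as a description, since the libraries share 4 groups and group differences set most of it. For LPIN1 they were PCYT2 itself (r = 0.982), ACSS2 (0.979), a cytosolic acetyl-CoA synthetase, and DHCR7 (0.974), the last enzyme of cholesterol synthesis. For PCYT2 they were ACSS2 (0.997), AP1M2 (0.992), an adaptor subunit of epithelial sorting, and MVD (0.991), an enzyme of the mevalonate pathway. For CHKA they were TBC1D20 (0.986), a Rab GTPase-activating protein, and STX3 (0.975), a syntaxin. ACSS2 averaged 78.5, 116, 20.9 and 16.5 TPM in LB amiodarone plus HPbCD, LB amiodarone, LB DMSO and A549 DMSO. Like PCYT2 and LPIN1 it was highest in amiodarone alone, whereas STX3 (34.3, 23.8, 12.7 and 14.7 TPM in the same order) and CHKA were highest in amiodarone plus HPbCD. Between those 2 groups PCYT2, LPIN1 and CHKA did not pass in limma (adjusted p = 0.0742, 0.302 and 0.163).

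**Figure D5:**
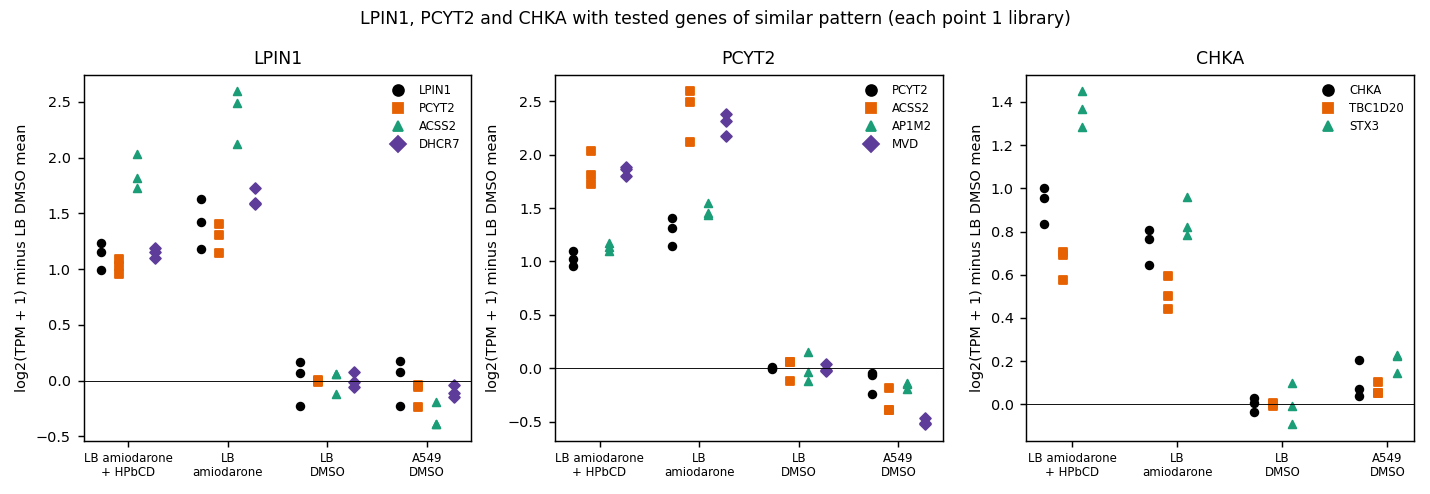
Level of LPIN1, PCYT2 and CHKA (panels) and of the similar tested genes named for each, as log2(TPM + 1) minus the mean of LB DMSO (y axis), by group (x axis); each point is 1 library. In the LPIN1 and PCYT2 panels the means of all genes are highest in LB amiodarone, and in the CHKA panel they are highest in LB amiodarone plus HPbCD. Between those 2 groups LPIN1, PCYT2 and CHKA did not pass in limma.

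Each of the 10 genes lies at 1 place on GRCh38, by GENCODE 29, and some share sequence with a neighbour. CHKA (chromosome 11, 68052859 to 68121444, minus strand) overlaps at its end the antisense RNA AP002807.1, which averaged 11.8 ± 1.91 TPM with amiodarone and 11.2 ± 1.98 TPM with DMSO in LB cells (adjusted p = 0.924). PCYT2 (chromosome 17, 81900965 to 81911464, minus strand) touches ANAPC11 on the other strand, which averaged 244 ± 19.6 and 276 ± 3.09 TPM in the same groups (log2 difference -0.18, adjusted p = 0.113). LPIN1 (chromosome 2, 11677595 to 11827409, plus strand) overlaps only RNAs that did not exceed 0.34 TPM. CHKB (chromosome 22, 50578949 to 50601455, minus strand) shares exons with the readthrough gene CHKB-CPT1B, at 4.75 to 12.2 TPM over the libraries, so its level is uncertain. MAPK8IP2, on the other strand at the far end of CHKB, averaged 5.39 ± 0.439 TPM with amiodarone and 3.49 ± 0.402 TPM with DMSO (adjusted p = 0.0211). CEPT1 (chromosome 1, 111139627 to 111185102, plus strand) overlaps the start of DRAM2, which averaged 26.8 ± 1.35 and 26.6 ± 2.32 TPM (adjusted p = 0.975). The libraries were made with a stranded kit, with the strand setting of the counting not given in the sources used here, so reads of opposite-strand neighbours may not have been told apart.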

How the data were processed

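RNA sequencing was done on 12 libraries of 2 human cell lines in 4 groups of 3 with a stranded mRNA kit, per the labels' protocols. The values deposited by the authors are TPM. They used STAR 2.7.3a, RSEM 1.3.1 and GRCh38, per the submitters' processing notes, with the annotation release not given in the sources used here. Reads that fit several genes are split by RSEM, so values of overlapping genes are less certain. Of 57189 rows, 37 held no value, leaving 57152, and 0 columns were without a sample. Column sums lay between 999449 and 999632. TPM keeps no depth, so no count model was used and no counting interval or floor was computed. Intervals of differences are from limma.

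Values were transformed as log2(TPM + 1). The 13968 genes that averaged 1 TPM or more were fitted in limma 3.58.1 under R 4.3.3 with all 4 groups (8 residual degrees of freedom) and a mean-variance trend, two-sided, adjusted by Benjamini-Hochberg at 0.05. The median residual SD was 0.128. The procedure was tested on simulated data. Alternatives were 2 pseudocounts, 2 filters, median-of-ratios scaling, no trend, a fit of 2 groups, a replicate block and leaving out each library. The 10 genes, the 5 lists of other pathway genes and the tests were chosen with earlier results of these data known. Named were all 10 genes, up to 4 called genes per list and comparison, genes too low to test, and the 3 most similar genes of 3 members, passing over pseudogenes, clones and antisense RNAs. Of these similar genes, 1 is not reported here. SELENOI with amiodarone alone, SREBF1, GDE1, GPAT3, PLPP1 and PLPP2 between the lines, and the neighbours of CHKA, PCYT2, CHKB and CEPT1 were named after their values were seen.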

Additional observations from a re-analysis of the deposited data

How the results depend on the processing

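The calls of CHKA, PCYT2 and LPIN1 in both comparisons of drug-treated with DMSO-treated LB cells, of LPIN2 under both agents, and of CHPT1 and LPIN2 between the lines were kept under every alternative run. Over the 10 genes and 4 comparisons, 316 of 320 values under the other settings and 452 of 480 with 1 library left out kept direction and side of the threshold. For the called genes of the other pathway lists these were 200 of 231 and 285 of 348, and the rest no longer passed. Such totals overstate how far the results were probed. Leaving out a library of a group not compared cannot move the difference. Nor can either filter, dropping the trend, the 2-group fit or the replicate block, so direction was fixed in advance there. The totals over the 10 genes also count genes that were not called and stayed so. The count of the 10 genes called lay between 3 and 4 for amiodarone, 4 and 5 for both agents, 2 and 3 between the lines, and 0 and 1 for HPbCD added to amiodarone with 1 library left out, where PCYT2 passed. Values that changed sign were all near zero. After median-of-ratios scaling LPIN1 between the lines was at 0.03, and with 1 library left out the log2 difference ranged from -0.21 to 0.05 for CHKB, -0.17 to 0.06 for CEPT1 and -0.13 to 0.11 for LPIN1 between the lines, and from -0.04 to 0.1 for PCYT1A, -0.06 to 0.07 for CHPT1 and -0.14 to 0.19 for LPIN3 with amiodarone. Shares that changed sign ranged, in percentage points, from -3.11 to 1.59 for CHKA, -1.61 to 0.718 for PCYT2 and -1.13 to 1.89 for LPIN1 between the lines, and from -0.61 to 0.574 for CEPT1 under both agents against DMSO. The cause was not tested. Over all genes, leaving out a library gave 630 to 1493 calls for amiodarone (1204 with all libraries) and 282 to 827 for HPbCD added to it (568 with all). With the replicate number as a block the counts of the 10 genes stayed at 2, 4, 0 and 5 in the line, amiodarone, added HPbCD and both-agent comparisons. Whether libraries of the same number share more than a label is not known. Deviations of same-numbered libraries correlated at -0.0273 to 0.212, and 3 to 5 of 6 libraries per comparison correlated best with their own number. SLC44A3 gave no value with a filter at 5 TPM. Without counts, depth limits cannot be given, and low genes such as LPIN2 carry an unknown counting error.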
